A study of Mus musculus with 8 samples.

Results

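The genes described here are 7 ligands that draw monocytes into tissue or keep monocyte-derived cells alive: the C-C chemokines Ccl2, Ccl3, Ccl4, Ccl7 and Ccl8, and Csf1 and Il34, the ligands of the Csf1 receptor. They were taken by name from the 51912 genes counted in ear epidermal sheets, with earlier results of these data known. Each library came from a different mouse, 4 labelled A20KIKO and 4 labelled A20WT. Both groups were 8 weeks old, carried conditional (floxed) alleles of Tnfaip3, the gene of the NF-kB inhibitor A20, and received 2 injections of 1 mg tamoxifen, the first 7 days before the skin was taken. The A20KIKO mice also carried Krt5-CreERT2, a tamoxifen-activated Cre recombinase under the promoter of a basal keratinocyte keratin, and the A20WT mice carried no Cre. The comparison therefore asks what differs in the epidermis after induced deletion of A20 in keratinocytes, and the presence of the Cre cannot be told apart from the deletion.

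Ccl2, Ccl7 and Ccl8 belong to the monocyte chemoattractant proteins. Ccl2 and Ccl7 act on Ccr2, the receptor that brings inflammatory monocytes out of the bone marrow and into tissue, while mouse Ccl8 acts on Ccr8. Ccl3 and Ccl4 are the macrophage inflammatory proteins, and Ccl3 acts on Ccr1. Csf1 and Il34 differ in sequence but bind the same receptor tyrosine kinase, Csf1r, on monocytes, macrophages and Langerhans cells. In skin, Il34 from keratinocytes is known to maintain Langerhans cells at steady state, and Csf1 is known to act when the skin is inflamed.

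Of the 7 genes, 5 had enough counts in enough libraries to be tested. Of these, 2 rose and 1 fell in the libraries labelled A20KIKO. Ccl2 and Csf1 rose, Il34 fell, and Ccl3 and Ccl8 did not pass the test. Over all 16512 tested genes, 3.49% changed, 2.43% higher and 1.06% lower (edgeR's quasi-likelihood test, Benjamini-Hochberg adjusted p under 0.05). Without the library of A20KIKO mouse 4, which stood apart in several of the genes below, 2 of 5 again rose and 1 fell. Ccl4 and Ccl7 reached the count minimum in too few libraries for this test and are given as values.

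Library totals ranged from 40451075 to 89624373 counts. Levels are CPM, counts scaled by library size and TMM factor to a common total of 1e+06, and a change is a log2 difference, A20KIKO minus A20WT. In whole epidermal sheets, more cells of a type and more RNA per cell cannot be told apart. Tnfaip3 counts were higher, not lower, in the A20KIKO libraries, with 74.0 ± 17.3 against 16.5 ± 2.65 CPM (SD, n = 4 each). Exons outside the floxed part also count here, and no source used here names the floxed exons, so this level does not check the labels.

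**Figure D1:**
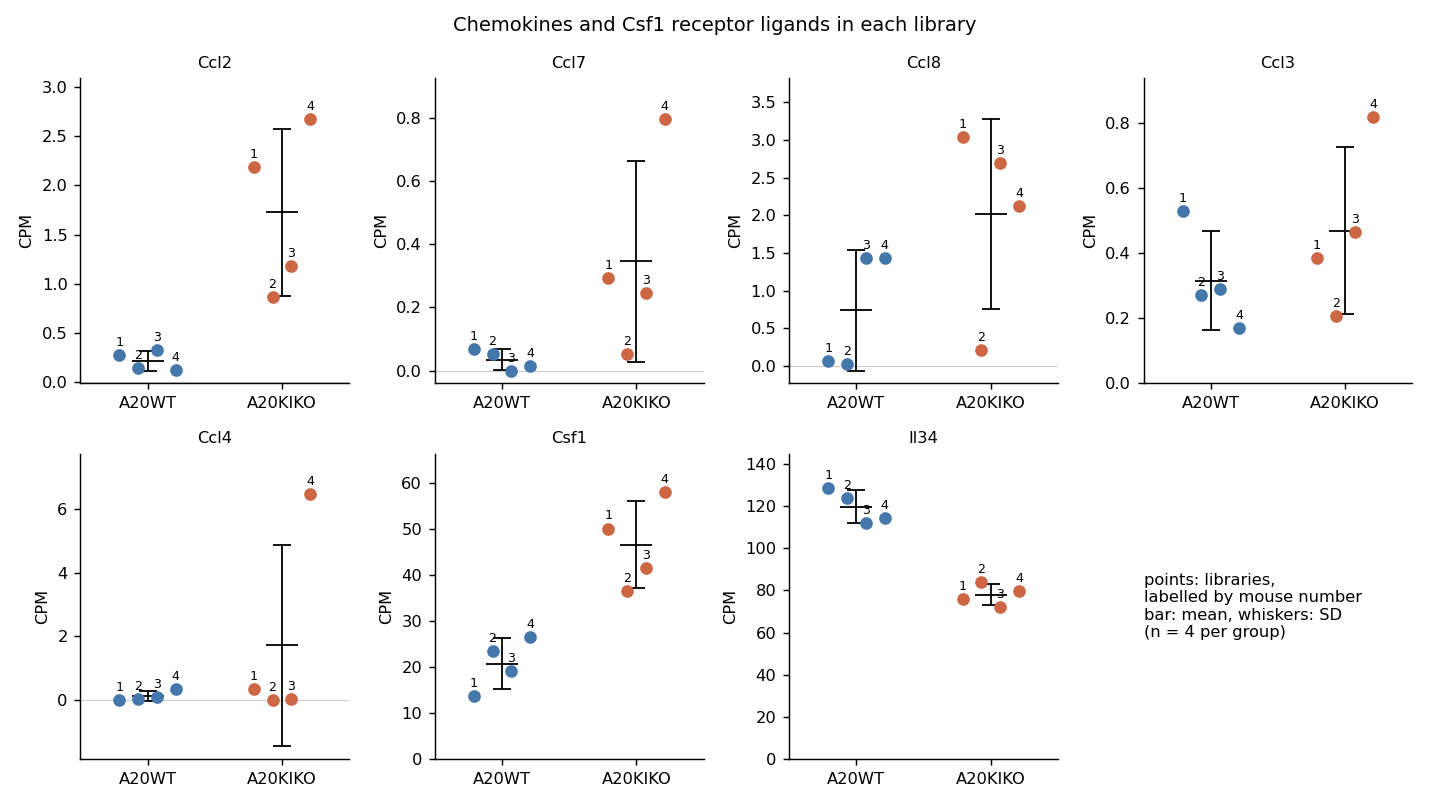
CPM of the 7 ligands in each library, with points labelled by mouse number, a bar at the mean and whiskers of 1 SD (n = 4 per group), each panel on its own linear axis. Ccl2, Csf1 and Il34 separate the groups without overlap, while Ccl4 stands out in A20KIKO mouse 4 with 6.44 CPM.

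Ccl2, the main ligand of Ccr2, was rare in the A20WT epidermis and rose 7.78-fold. The libraries labelled A20KIKO had 2.19, 0.865, 1.18 and 2.68 CPM in mice 1 to 4, from 48 to 235 counts. Those labelled A20WT had 0.277, 0.144, 0.325 and 0.124 CPM, from 8 to 28 counts. The lowest A20KIKO library therefore lay above the highest A20WT library. The log2 change was 2.96 (SE 0.46, edgeR adjusted p = 0.00333). Within the libraries labelled A20KIKO, mice 1 and 4 were high and mice 2 and 3 lower. Without any single library the change lay between 2.67 and 3.22, with edgeR adjusted p of 0.00206 to 0.0156.

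Ccl7, which shares the receptor Ccr2 with Ccl2, had few counts, and 3 of the 4 libraries labelled A20KIKO lay above all A20WT libraries. Mice 1 to 4 labelled A20KIKO had 25, 3, 10 and 70 counts, or 0.292, 0.052, 0.245 and 0.797 CPM. Those labelled A20WT had 6, 3, 0 and 1 counts, and the 0 in mouse 3 allows up to 0.0348 CPM at 3 counts. A20KIKO mouse 2, at 0.0519 CPM, fell among the A20WT libraries. The ratio of the group means was 9.99, or 3.32 on the log2 scale, and 2.50 without A20KIKO mouse 4. Ccl7 did not reach the count minimum in enough libraries and so has no adjusted p of the main comparison. It passed when rare genes were kept (log2 change 3.28, SE 0.88, edgeR adjusted p = 0.0471), in DESeq2 (adjusted p = 0.0137) and without A20KIKO mouse 2 (edgeR adjusted p = 0.0405). It did not pass when any 1 of the A20WT libraries was left out (edgeR adjusted p = 0.0851 to 0.2).

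Ccl8 varied as much within the groups as between them. Mice 1 to 4 labelled A20KIKO had 3.04, 0.208, 2.70 and 2.13 CPM, and those labelled A20WT 0.0691, 0.018, 1.43 and 1.43 CPM. Mice 1, 3 and 4 of the first group were above all A20WT libraries, but mouse 2 lay below A20WT mice 3 and 4. The log2 change of 1.45 carried an SE of 1.20 and did not pass (edgeR adjusted p = 0.66). It was 2.44 in limma-voom and 2.05 with the replicate number as a block, and passed in neither (adjusted p = 0.397 and 0.291).

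Ccl3, a ligand of Ccr1, overlapped between the groups throughout. The libraries labelled A20KIKO had 0.386, 0.208, 0.466 and 0.820 CPM, and those labelled A20WT 0.530, 0.270, 0.290 and 0.171 CPM. Its log2 change was 0.57 (SE 0.50, edgeR adjusted p = 0.668), and 0.14 without A20KIKO mouse 4.

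Ccl4, the neighbour of Ccl3, was high in a single library. A20KIKO mouse 4 had 566 counts, or 6.44 CPM, while A20KIKO mice 1 to 3 had 30, 1 and 2 counts, or 0.351, 0.0173 and 0.049 CPM. Mice 1 to 4 labelled A20WT had 1, 2, 10 and 23 counts, up to 0.357 CPM. The log2 ratio of the group means was 3.72 with all libraries and 0.10 without A20KIKO mouse 4, so the difference rested on that mouse. Kept in the table without a count minimum, Ccl4 had an edgeR adjusted p = 0.527. Ccl3, which lies close to it, had 0.820 CPM in the same mouse, its highest value of the 8 libraries.

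The 5 chemokine genes lie in 2 groups on chromosome 11 (GENCODE M21, GRCm38). Ccl2 (ENSMUSG00000035385, 82035571 to 82037453), Ccl7 (ENSMUSG00000035373, 82045712 to 82047525) and Ccl8 (ENSMUSG00000009185, 82115185 to 82116799) span 81.2 kb. Ccl3 (ENSMUSG00000000982, 83647844 to 83649355) and Ccl4 (ENSMUSG00000018930, 83662584 to 83664683) span 16.8 kb. The stretch from Ccl2 to Ccl4 covers 1629 kb. None of the 50-base stretches of the transcripts of these 5 genes or of Csf1 occurred in a transcript of another annotated gene, so reads of such a stretch were not shared between these paralogs.

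Of 6 further C-C chemokines fixed from the same chromosome, 3 were tested and 2 of them rose, beside 2.43% of all tested genes. Ccl5, which attracts T cells and monocytes, had 5.05, 0.917, 1.69 and 3.53 CPM in A20KIKO mice 1 to 4 and 0.0691 to 0.22 CPM in the A20WT libraries (log2 change 4.57, SE 0.59, edgeR adjusted p = 0.00162). Ccl6, which myeloid cells make, rose from 26.1 ± 1.18 to 44.0 ± 5.75 CPM (SD, n = 4 each, log2 change 0.75, SE 0.12, edgeR adjusted p = 0.00478). The third tested gene, Ccl1, did not pass (edgeR adjusted p = 0.179). It is a ligand of Ccr8, as is Ccl8, and was named after its value was seen. Ccl12, the mouse gene closest in role to Ccl2, was also named so. It had 10 and 12 counts in A20KIKO mice 1 and 4 and 0 in the other 6 libraries.

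Csf1, the macrophage colony-stimulating factor, rose 2.25-fold. The libraries labelled A20KIKO had 50.2, 36.7, 41.7 and 58.1 CPM in mice 1 to 4, and those labelled A20WT had 13.8, 23.5, 19.1 and 26.5 CPM. All A20KIKO libraries lay above all A20WT libraries. The log2 change was 1.17 (SE 0.20, edgeR adjusted p = 0.00686). Leaving out 1 library at a time gave 1.02 to 1.31. Csf1 (ENSMUSG00000014599) lies on chromosome 3, 107741048 to 107760469, on the minus strand.

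Il34, the keratinocyte ligand of the same receptor, went the other way. It had 76.0, 83.8, 72.0 and 79.9 CPM in the libraries labelled A20KIKO and 129, 124, 112 and 114 CPM in those labelled A20WT. The highest A20KIKO library lay well below the lowest A20WT library. The log2 change was -0.62 (SE 0.10, edgeR adjusted p = 0.00396), with values from -0.66 to -0.58 without any single library. Il34 (ENSMUSG00000031750) lies on chromosome 8, 110741829 to 110805924, on the minus strand. Antisense genes Gm15894 and Gm15895 share 22 and 75 exonic bases with it and held 304 and 563 counts in all 8 libraries together, against 56349 counts of Il34. Library preparation kept no strand, so reads of the shared bases were not separable.

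With Ccl2, Csf1 and Il34, 3 of the 5 tested ligands did not overlap between the groups, which held for 10.6% of all tested genes.

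Of 5 basal keratinocyte markers, 1 fell as Il34 did, beside 1.06% of all tested genes. Krt5, a structural keratin of basal keratinocytes and the gene whose promoter drives the Cre, fell (log2 change -0.83, SE 0.12, edgeR adjusted p = 0.00272). Its partner Krt14 ranged from 14269 to 20357 CPM where labelled A20KIKO and from 15258 to 25733 CPM where labelled A20WT, and Krt15 had 2903 to 5364 and 5348 to 7403 CPM. The summed level of the 5 markers was 22488 to 28236 and 30717 to 41062 CPM. Of 5 suprabasal markers, among them Krt10 and Lor, 0 passed, and their sum was 29116 to 37577 and 24461 to 36070.5 CPM. The part of these keratinocyte levels in the fall of Il34 was not tested.

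**Figure D2:**
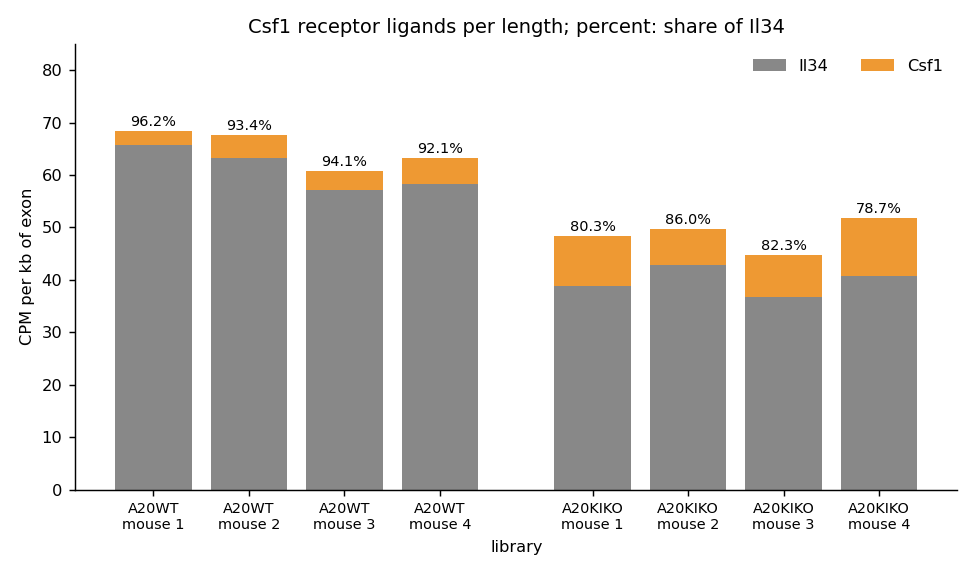
CPM per kb of exon of Il34 (grey) and Csf1 (orange), stacked for each library, with the share of Il34 in their sum printed above each bar. Il34 made up 92.1% to 96.2% of the sum in the A20WT libraries and 78.7% to 86.0% in the A20KIKO libraries.

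Per length of exon, Il34 was the most abundant of the 7 ligands in both groups. Its level was 61.1 ± 4.03 CPM per kb in the libraries labelled A20WT and 39.8 ± 2.59 in those labelled A20KIKO (SD, n = 4 each). Csf1 followed with 3.92 ± 1.05 and 8.84 ± 1.79 CPM per kb. Between Il34 and Csf1 the libraries did not overlap in either group.

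The chemokines were lower and hard to order. In the A20WT libraries, mean levels ran from Ccl8 (1.44 CPM per kb) through Ccl3 (0.412), Ccl4 (0.197) and Ccl2 (0.191) to Ccl7 (0.0433). Neighbours in this order overlapped between libraries from Csf1 down to Ccl2, and Ccl2 lay above Ccl7 in all 4. In the A20KIKO libraries the order was Ccl8 (3.95), Ccl4 (2.60, from mouse 4), Ccl2 (1.52), Ccl3 (0.613) and Ccl7 (0.433). There the ranges of Csf1 and Ccl8 did not overlap, while those of all lower neighbours did. Within each single library of both groups, Csf1 lay above Ccl8.

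The opposite changes of Csf1 and Il34 shifted the mix of ligands. Il34 made up 80.3, 86.0, 82.3 and 78.7% of the summed level of both ligands per length in the libraries labelled A20KIKO, and 96.2, 93.4, 94.1 and 92.1% in those labelled A20WT. The difference of the means was -12.1 percentage points (two-sided exact permutation test, n = 4 each, p = 0.0286, the smallest that 4 against 4 libraries can give). Without division by length the difference was -22.5 points. This share combines the changes of the 2 genes and adds no separate evidence. The sum was also lower with the A20KIKO label, at 44.7 to 51.8 CPM per kb against 60.8 to 68.3. Not divided by length, the summed level overlapped, at 113.7 to 138.0 CPM against 131.1 to 147.3 CPM.

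The data bear on promoters only through the levels of the genes behind them. RefSeq promoter sequences (GRCm38.p6) were matched for Ccl3, Ccl8 and Csf1, and the 250 bases before the start site were searched on both strands for 5 motifs: the NF-kB motif kappaB, the interferon response core (the letters GAAA, any 2 bases, GAAA), the STAT motif GAS (TTCNNNGAA), the AP-1 motif TGANTCA and the TATA box TATAAA. The promoters of Csf1, which rose, and of Ccl8, which did not pass, are shown 5′ to 3′ on the strand of the gene, with matches in capitals, to set a risen gene beside one that varied. The Csf1 stretch is chr3:107760470-107760719 (minus strand) and the Ccl8 stretch is chr11:82114935-82115184 (plus strand).
Csf1: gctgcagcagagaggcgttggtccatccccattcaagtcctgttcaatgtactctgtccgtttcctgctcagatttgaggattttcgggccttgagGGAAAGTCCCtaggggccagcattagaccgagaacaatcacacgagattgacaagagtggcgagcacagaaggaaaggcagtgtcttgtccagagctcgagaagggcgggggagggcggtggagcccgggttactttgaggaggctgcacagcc
Ccl8: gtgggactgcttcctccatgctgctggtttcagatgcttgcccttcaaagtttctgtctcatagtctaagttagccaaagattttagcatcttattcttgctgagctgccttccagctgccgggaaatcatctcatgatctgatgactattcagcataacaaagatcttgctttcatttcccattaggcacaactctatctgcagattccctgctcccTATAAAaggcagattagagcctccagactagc

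In Csf1 the capitals mark a kappaB match that reads GGGACTTTCC on the opposite strand, 145 to 154 bases before the start site. Such a match was present in 7.25% of 32851 promoter stretches of this length. In Ccl8 they mark a TATA box 27 to 32 bases before the start, a match found in 12.4% of the stretches. The stretch of Ccl3 held none of the 5 motifs. Interferon response core, GAS and AP-1 matches occurred in 2.98%, 7.02% and 6.75% of all stretches and in none of these 3. No 2 matches overlapped. A match here describes the letters only.

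**Figure D3:**
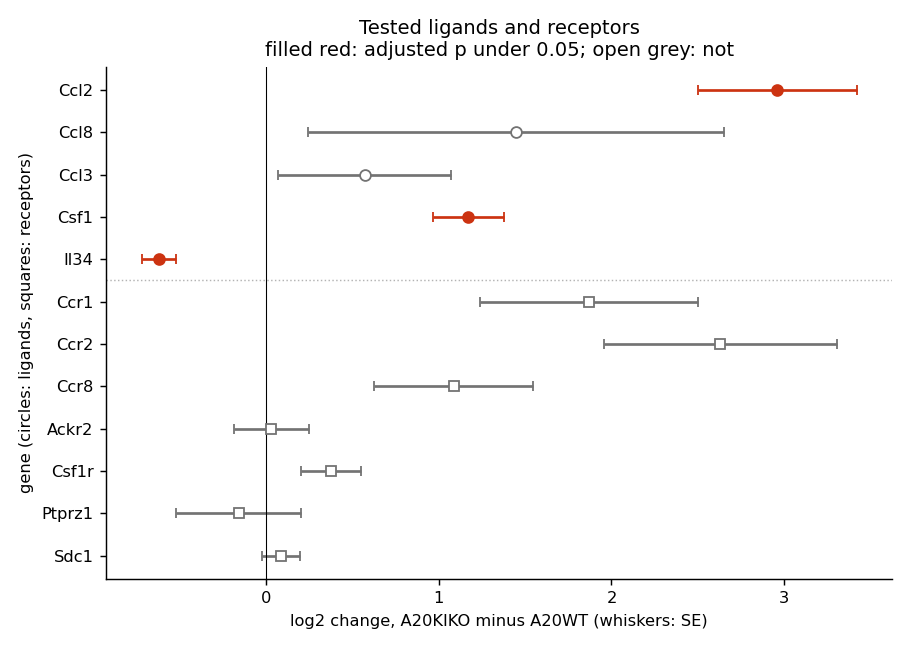
Log2 change (A20KIKO minus A20WT) with its SE for the 5 tested ligands (circles) and the 7 tested receptors (squares), filled red where the edgeR adjusted p was under 0.05 and open grey where it was not. Ccl2 and Csf1 lie to the right of 0 and Il34 to the left, and no receptor is filled.

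None of the receptors passed the test. Of 10 receptor genes, 7 were tested, with a median log2 change of 0.38 beside -0.01 over all tested genes. Csf1r, the shared receptor of Csf1 and Il34, had 80.4, 78.8, 88.4 and 72.8 CPM in A20KIKO mice 1 to 4 and 39.5, 65.6, 63.7 and 77.9 CPM in A20WT mice 1 to 4, with overlap (log2 change 0.38, SE 0.17, edgeR adjusted p = 0.324).

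Ccr2, the receptor of Ccl2 and Ccl7, came nearest to the threshold. It had 1.31, 0.329, 0.858 and 4.20 CPM in the libraries labelled A20KIKO and 0.15, 0.252, 0.302 and 0.388 CPM in those labelled A20WT (log2 change 2.63, SE 0.67, edgeR adjusted p = 0.0602). A20KIKO mouse 2 overlapped with A20WT mouse 4, and without A20KIKO mouse 2 the gene passed (edgeR adjusted p = 0.0122), as it did in DESeq2 (adjusted p = 0.000518) and in the second lane alone (edgeR adjusted p = 0.0324). Without A20KIKO mouse 4 the log2 change of Ccr2 was 1.62 (edgeR adjusted p = 0.17), and limma-voom gave 2.29 (adjusted p = 0.186). Ccr1, the receptor of Ccl3, reached 9.20 CPM in A20KIKO mouse 4, while mice 1 to 3 of that group held 1.15 to 1.87 and the A20WT mice 0.667 to 1.40 CPM (edgeR adjusted p = 0.174). Ccr8, the receptor of mouse Ccl8, had 0.969 to 2.49 and 0.288 to 1.68 CPM (edgeR adjusted p = 0.274).

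The scavenger receptor Ackr2, which removes inflammatory C-C chemokines, did not pass (edgeR adjusted p = 0.966, log2 change 0.03, SE 0.22), with 7.51 to 14.3 CPM in the libraries labelled A20KIKO and 7.51 to 13.4 CPM in the others. Its direction was negative in the second lane alone and without A20KIKO mouse 4 or A20WT mouse 1. Sdc1 and Ptprz1, a syndecan and a receptor phosphatase that also bind Il34, had log2 changes of 0.09 and -0.16 (SE 0.11 and 0.36, edgeR adjusted p = 0.778 and 0.9), and that of Ptprz1 was positive in the first lane alone and without A20KIKO mouse 1 or 2.

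Other genes around the ligands rose in part, where 2.43% of all tested genes rose and 1.06% fell. Of 7 cytokines known to induce them, 3 were tested and Tnf rose (log2 change 2.04, SE 0.39, edgeR adjusted p = 0.0121). It did not pass when A20WT mouse 1 was left out (edgeR adjusted p = 0.0678). Tnf was highest in A20KIKO mouse 4, at 9.95 CPM against 2.94 to 4.36 CPM in A20KIKO mice 1 to 3. Il1a and Il1b, named after their values were seen, did not pass (edgeR adjusted p = 0.993 and 0.486). Il1b had 43.3 CPM in A20KIKO mouse 4 and at most 2.45 CPM in any other library. Of 13 regulators of chemokine transcription and mRNA decay, all tested, 4 rose and 0 fell, with a median log2 change of 0.30. Among them were the transcription factor Irf1 (log2 change 1.95, edgeR adjusted p = 0.00058) and the NF-kB subunits Relb (0.90, adjusted p = 0.00107) and Nfkb2 (0.84, adjusted p = 0.0119), Nfkb2 being named after its value was seen. Zfp36 and Zc3h12a, whose products degrade cytokine mRNAs, were among the 9 that did not pass, and are named after their values were seen. Their log2 changes were 0.14 and 1.15 (edgeR adjusted p = 0.749 and 0.107). Zc3h12a had 39.3 to 107.7 CPM in the A20KIKO libraries and 22.0 to 37.8 CPM in the A20WT libraries.

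Of 5 other growth factors of myeloid cells, 3 were tested and 0 passed with edgeR. Kitl, the ligand of Kit, and Flt3l, the ligand of Flt3 on dendritic cell precursors, had log2 changes of 0.78 and 0.85 (SE 0.21 and 0.25, edgeR adjusted p = 0.0696 and 0.0987). The groups did not overlap in either gene, which held for 10.6% of all tested genes. Kitl and Flt3l passed in DESeq2 (adjusted p = 0.00882 and 0.0151). Kitl also passed with rare genes kept, in the first lane alone and without A20KIKO mouse 4 (edgeR adjusted p = 0.0409, 0.0246 and 0.0474). Il3, named after its values were seen, had no count in any library.

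The genes whose profiles lay closest to each changed ligand were found by the root-mean-square difference of log2 CPM over the 8 libraries, each gene taken relative to its own mean. The group difference was not removed, so genes with a like change between the groups lie close. Closest to Ccl2 were Parp14 (0.24 log2 units), 1110032F04Rik (0.29) and Rnf213 (0.35), where Ccl2 itself varied by 1.51 about its mean. Closest to Csf1 were Orai2 (0.15), Tap2 (0.17) and B4galt5 (0.17), against its own 0.67. Closest to Il34 were Gm15411 (0.09), Selenbp1 (0.09) and Zfp503 (0.10), against its own 0.32.

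**Figure D4:**
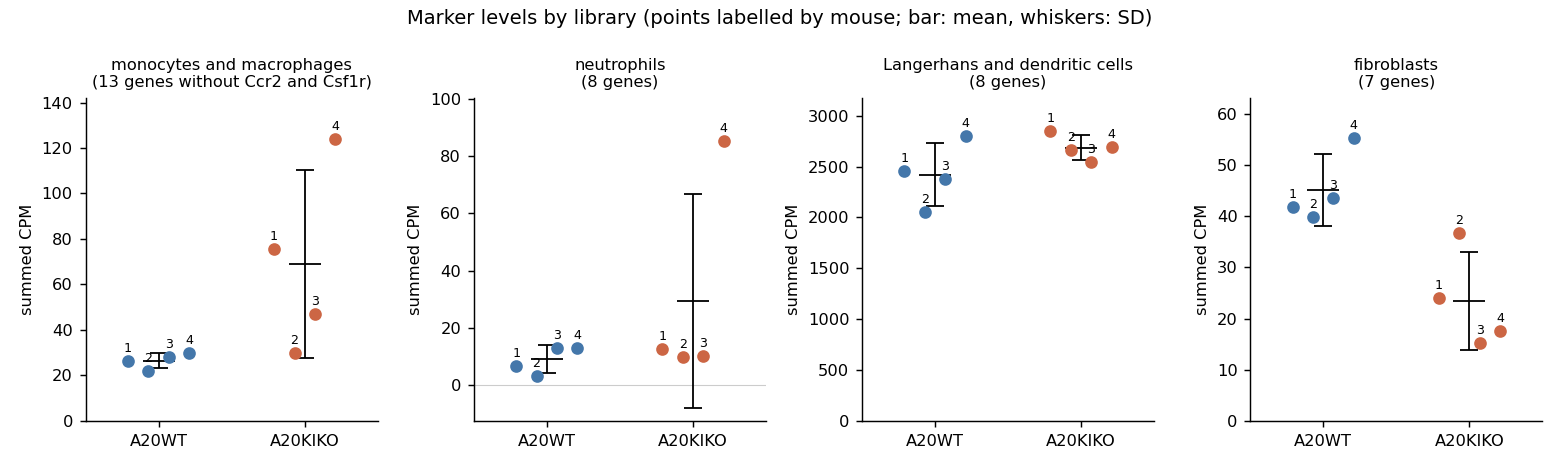
Summed CPM of marker lists in each library, for monocytes and macrophages (13 genes, without Ccr2 and Csf1r), neutrophils, Langerhans and dendritic cells, and fibroblasts, with points labelled by mouse, a bar at the mean and whiskers of 1 SD (n = 4 per group). The summed neutrophil level is 85.4 CPM in A20KIKO mouse 4, above the other 7 libraries, and fibroblast markers are lower in every A20KIKO library than in any A20WT library.

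Some markers of monocytes and macrophages rose as Ccl2 and Csf1 did. Of 15 markers, 10 were tested and 4 rose: Ly6c2, a surface protein of inflammatory monocytes (log2 change 3.81, edgeR adjusted p = 0.00334), and the complement genes C1qa, C1qb and C1qc (log2 changes 2.19, 3.77 and 3.30, adjusted p = 0.00184, 0.00227 and 0.00272), all named after their values were seen. The median of the 10 was 2.11. Over all tested genes, 2.43% rose. Csf1r and Cd68, the markers with the highest mean CPM, did not pass. Without Ccr2 and Csf1r, which are also receptors of the ligands, the other 13 markers summed to 75.4, 29.7, 47.0 and 124 CPM in A20KIKO mice 1 to 4 and to 22.1 to 29.7 CPM in the A20WT libraries, so that A20KIKO mouse 2 met the highest of these. Of the 124 CPM in A20KIKO mouse 4, Cd14, an endotoxin co-receptor named after its values were seen, gave 52.4 CPM, against 2.70 to 4.09 CPM in A20KIKO mice 1 to 3 (edgeR adjusted p = 0.482). The 4 markers that rose were highest in A20KIKO mouse 1, as were Adgre1 and Ms4a7. C1qb, for example, had 13.3, 2.25, 6.59 and 8.32 CPM in A20KIKO mice 1 to 4. Csf1r was highest in A20KIKO mouse 3. Ccr2, Lyz2, Cd14, Cd68, Fcgr1, Plac8, Chil3 and Mrc1 were highest in A20KIKO mouse 4, as were Ccl2 and Csf1. Lyz2, for example, had 10.3 CPM in A20KIKO mouse 1 and 13.3 CPM in mouse 4. Adgre1, Ms4a7, Lyz2, Plac8, Chil3 and Mrc1 are named after their values were seen. No marker of the list was at 0 in all libraries, while Fcgr1, named after its values were seen, had 0 counts in A20WT mice 1, 2 and 4. The part of monocytes and macrophages in the rise of Ccl2 and Csf1 was not tested.

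Some neutrophil markers stood high in the library that held most Ccl4 and Ccl7. Of 8 markers only Cxcr2 was tested (edgeR adjusted p = 0.52), with 48.6 CPM for A20KIKO mouse 4 and 3.30 to 12.97 CPM in the other 7 libraries. Ly6g and Retnlg, named after their values were seen, had 141 and 1948 counts in A20KIKO mouse 4 and at most 1 in any other library. Camp and Mpo, also named after their values were seen, did not stand out there, with 3 and 11 counts in A20KIKO mouse 4 (0.0342 and 0.125 CPM) against 7 and 6 counts in A20KIKO mouse 3 (0.172 and 0.147 CPM). Csf3r and Ltf, named so as well, had 1063 and 60 counts in A20KIKO mouse 4 and at most 16 and 1 in any other library. Elane had no count in any library. The part of neutrophils in the Ccl4 counts was not tested.

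Of the other cells an epidermal sheet can hold, Langerhans and dendritic cells showed 1 of 8 tested markers changed, beside 3.49% of all tested genes. This marker, Cd86, a costimulatory molecule named after its value was seen, rose (log2 change 0.95, edgeR adjusted p = 0.0188, and 0.0575 to 0.079 without A20KIKO mouse 1 or 4 or A20WT mouse 3). Cd74 and H2-Ab1, the leading markers of these cells, did not pass. The summed level of the 8 was 2543 to 2846 CPM in the libraries labelled A20KIKO and 2050 to 2796 CPM in the others. Of 7 T cell markers, led by Cd3g and Cd3e, 0 passed.

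Fibroblast markers, led by Dcn and Col1a2, summed to 15.3 to 36.7 CPM in A20KIKO against 39.7 to 55.3 CPM in A20WT mice, and 0 of 5 tested passed. Melanocyte markers, led by Pmel and Dct, summed to 92.7 to 222 CPM in A20KIKO mice 1 to 3, 45.9 CPM in mouse 4 and 40.9 to 56.4 CPM in A20WT mice, and 0 of 5 passed. Endothelial markers (Vwf, Pecam1), mast cell markers (Kit, Mrgprb2) and markers of cartilage and fat (Comp, Col2a1) summed to at most 11.1 CPM in any library, and 0 of the 9 tested passed. The part of these cells in the changes of the ligands was not tested.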

How the data were processed

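Epidermal sheet RNA of 8 mice was read out from SMART-Seq v4 cDNA and Nextera libraries, per the labels' protocols, a chemistry that keeps neither strand nor molecular identifiers. The authors deposited raw counts per Ensembl gene in 2 lane columns for each library, which were summed. The submitters' processing notes list the builds GRCm38.p5 and GRCh38 and the tools STAR 2.4.2a, Picard 1.139 and HTSeq 0.6.1p1, with no role for any. No source used here gives the counting options. Splits between lanes varied more than independent reads would (chi-square 2.48 to 2.75 per gene), so a count is not taken as an independent molecule, and floors of 3 counts cover counting error only.

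Counts were fitted in R 4.3.3 with edgeR 4.0.16: filterByExpr (minimum count 10, total 15), TMM factors, robust quasi-likelihood with the group as the only term, two-sided, adjusted p under 0.05 over all 16512 tested genes. The SE of a log2 change is its size over the root of its F statistic. Ccl4 and Ccl7, below the filter, are given as ratios of mean CPM. Exon lengths and positions come from GENCODE M21. Alternatives were DESeq2 1.42.0, limma 3.58.1 (voom), other size factors and filters, single lanes, the replicate block and single libraries left out. In simulated counts of 16512 genes for this comparison the test recovered 18.4% of genes changed 1.5-fold, 60.6% changed 2-fold and 91.4% changed 4-fold. Changes were set only in genes above a minimum mean count, with the spread taken from the trend over all genes. These shares therefore do not cover Ccl4 and Ccl7, or genes that vary between mice as Ccl8 does.

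The members and lists were chosen with earlier results of these data known. The rule named the 7 ligands, all tested receptors, Tnfaip3, Krt5, up to 3 changed genes of each other list (or its 2 with the highest mean), 2 markers with the highest mean and any marker without counts of each cell type, and the 3 closest profiles. Other genes are marked as chosen after their values were seen, except 2 antisense genes named for their overlap with Il34. Some listed genes are not reported here.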

Additional observations from a re-analysis of the deposited data

Results flagged for a closer look

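In groups of 4 libraries, the highest or lowest library was compared with the rest. Dixon's ratio of the gap to the range was used, at its 95% critical value. It covered 92 groups, from 45 of the genes named by the rule and the Il34 share, and a library stood apart in 5 groups. Genes named after their values were seen were left out, among them Cd14, Il1b, Retnlg, Ly6g, Csf3r and Ltf, which were high in A20KIKO mouse 4. Chance alone flags about 1 in 20 such groups, and 5 of 92 is close to that share. Of the 5, 3 concern A20KIKO mouse 4: Ccl4 at 6.44 CPM (0.0173 to 0.351 in A20KIKO mice 1 to 3), Ccr1 at 9.20 CPM (1.15 to 1.87) and Cxcr2 at 48.6 CPM (9.54 to 12.5). Krt10 stood at 25215 CPM in A20KIKO mouse 3 (17687 to 18631 in mice 1, 2 and 4), and Ccl5 at 0.22 CPM in A20WT mouse 3 (0.0691 to 0.0932 in mice 1, 2 and 4).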

How the results depend on the processing

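Ccl2, Csf1 and Il34 kept their direction and stayed past the threshold under all alternatives that tested them, 15, 16 and 16 in number (Ccl2 was below the filter of 5 CPM in 4 libraries). Ccl3 and Ccl8 kept their direction and passed under none of 15. The ligands called changed numbered 2 to 4. Ccl7 was called with no count filter (log2 change 3.28), in DESeq2 (3.34) and without A20KIKO mouse 2, had a log2 ratio of means of 5.79 in lane 2 alone, and 2.50 to 4.00 with single libraries left out. Ccl4 ranged from 0.10 to 4.98 with single libraries left out. The cause was not tested. All changed genes numbered 576, with 374 under the stricter filter, which tested fewer genes, 1171 in DESeq2, and 348 (without A20KIKO mouse 1) to 619 with single libraries left out. Without A20WT mouse 3 there were 355. Changed genes of the other lists numbered 7, and 13 in DESeq2. Ackr2 went to -0.072 in lane 2 alone and ranged from -0.12 to 0.18 with single libraries left out, and Ptprz1 went to 0.016 in lane 1 alone and ranged from -0.68 to 0.029.

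No pairing of the mice by replicate number was evident, which does not show that it was absent. Deviations of same-numbered libraries correlated at 0.04, 0.06, -0.01 and 0.24, the last being the highest of all pairs between the groups. Not every library correlated best with its own number. With the replicate block 551 genes were called, as were 3 of 5 tested ligands (Ccl2, Csf1 and Il34) and 8 genes of the other lists, and the Il34 share differed by the same -12.1 points, with an exact sign-flip p = 0.125, the smallest 4 pairs can give. With single libraries left out the share differed by -13.5 to -11.0 points, where 0.0571 is the smallest p possible. Low counts limit Ccl4 and Ccl7 in the A20WT libraries, with 36 and 10 counts over the 4. For Ccl4, 566 of the 635 counts over all 8 libraries lay in A20KIKO mouse 4.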
